A study of Mus musculus with 12 samples.

Results

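Mitochondrial ribosomal protein genes encode the protein part of the mitoribosome, the ribosome inside mitochondria. Members were the protein-coding genes whose mouse symbol begins with Mrpl or Mrps followed by a number, and 78 of the 27179 genes in the table met this rule. The mitoribosome translates the few proteins that mitochondrial DNA encodes, all of them core subunits of the respiratory chain and ATP synthase, while its own proteins are encoded in the nucleus, made by cytosolic ribosomes and imported. Many of its proteins have relatives in bacterial ribosomes, and others are found only in mitochondria. The kidney's proximal tubule cells are rich in mitochondria, because they take up most of what the glomerulus filters.

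RNA was sequenced from whole kidneys of 12 mice, 3 in each of 4 groups, on a mixed strain background and at 8 to 12 weeks of age per the labels. FAN1KO mice lacked the DNA repair nuclease FAN1 in cells that express the γGT1-Cre driver (γGT1-Cre;Fan1-/-), which acts in the proximal tubule, so other kidney cells kept the gene. Wild-type and FAN1KO mice received either saline or cisplatin, a platinum drug that crosslinks DNA, injected weekly at 2 mg/kg for 5 weeks. The values were TPM, a relative transcript abundance whose values are scaled by gene length and sum to the same total in every library. In whole kidneys, fewer cells of a type and less RNA per cell cannot be told apart. Fan1 itself ranged from 1.98 to 3.80 TPM (wild-type) and from 1.17 to 2.28 TPM (FAN1KO) with saline, and from 2.33 to 3.57 TPM (wild-type) and from 1.55 to 3.51 TPM (FAN1KO) with cisplatin. The genotypes overlapped, so Fan1 RNA did not check the labels. Reads recovered from the steps of the TPM numbered 37201916 to 82947187 per library, and 1 library of each group expressed Y-linked genes.

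Upstream sequences were read from RefSeq (build GRCm38.p6), which held a window for 69 of the 78 members. They show the kind of promoter these genes have. In the 250 bases before the start site, and on either strand, the core of the NRF1 motif (GCGCANGCG) stood in 13 of the 69 windows (18.84%), against 10.68% of the windows of genes tested here and 5.33% of all windows. NRF1 is a transcription factor known for activating nuclear genes of mitochondrial proteins. The ETS core (CCGGAAG), the letters bound by ETS factors such as GABP, stood in 17 windows (24.64%), against 13.05% of the windows of genes tested. The YY1 core (AAGATGGCG) stood in 2 windows (2.90% against 1.06%), the CCAAT box in 25 (36.23% against 36%) and the GC box (GGGCGG) in 33 (47.83% against 57.40%). These matches are letters in a window and were not tested as binding sites. The 120 bases before the start are given for 5 members, picked for the traits named next, with CCAAT boxes, ETS cores and NRF1 cores in capitals. Mrpl33 and Mrpl52 had the largest rises among the members after cisplatin in FAN1KO kidneys, Mrps22 fell, Mrpl30 rose and holds a pair of NRF1 cores, and Mrpl12 is among the most abundant members.
Mrpl33, chr5:31613831-31613950, plus strand: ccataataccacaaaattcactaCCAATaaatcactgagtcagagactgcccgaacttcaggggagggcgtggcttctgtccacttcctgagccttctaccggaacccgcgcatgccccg
Mrpl52, chr14:54426789-54426908, plus strand: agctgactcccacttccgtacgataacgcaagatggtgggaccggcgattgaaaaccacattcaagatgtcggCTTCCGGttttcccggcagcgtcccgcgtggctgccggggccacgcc
Mrpl30, chr1:37890357-37890476, plus strand: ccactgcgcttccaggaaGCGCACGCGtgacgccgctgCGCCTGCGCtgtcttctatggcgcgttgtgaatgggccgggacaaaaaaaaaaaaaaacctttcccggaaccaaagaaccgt
Mrpl12, chr11:120484517-120484636, plus strand: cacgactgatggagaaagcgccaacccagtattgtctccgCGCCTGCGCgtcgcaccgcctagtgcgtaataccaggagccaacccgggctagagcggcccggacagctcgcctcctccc
Mrps22, chr9:98601680-98601799, minus strand: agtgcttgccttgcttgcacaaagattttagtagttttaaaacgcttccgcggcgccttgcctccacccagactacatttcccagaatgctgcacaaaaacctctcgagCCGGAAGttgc

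Nearly all members were expressed in the kidney at moderate levels. Their mean over the 12 libraries had a median of 72.5 TPM, and 72 of the 78 lay between 10 and 200 TPM. Mrps21, a small subunit protein with a bacterial relative, was highest at 431 TPM, followed by Mrpl42 (219 TPM), Mrpl12 (201 TPM), Mrpl33 (197 TPM) and Mrpl52 (194 TPM). Mrpl12 belongs to the stalk that recruits translation factors and is also known to bind mitochondrial RNA polymerase. The order of Mrpl12, Mrpl33 and Mrpl52 depended on the group, because Mrpl33 and Mrpl52 were highest in cisplatin-treated FAN1KO kidneys and Mrpl12 was not.

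At the low end stood Mrps25 (12.6 TPM), Mrpl1 (12.1 TPM), Mrpl19 (9.51 TPM) and Mrpl23 (9.17 TPM). Mrpl36, a small protein of the large subunit, was at 0.0931 TPM with at most 0.243 TPM in any library, and it alone missed the level needed for testing, 1 TPM or more in any 3 libraries or more. All members other than Mrpl36, 77 genes, were therefore tested. The exons of Mrps25 overlap those of Nr2c2 over 69.8% of their length on the opposite strand, and those of Mrpl19 overlap Gcfc2 over 36%. Whether counting used strand is not given in the sources used here, so the levels of these genes are uncertain. In all, 23 of the 78 members have exons that overlap another protein-coding gene, with Mrpl53 (88%) and Mrps34 (77.8%) overlapped most, named here after their values were seen. Levels within a group varied little, with a median coefficient of variation over the tested members from 6.26% (FAN1KO with cisplatin) to 9.24% (wild-type with cisplatin).

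**Figure D1:**
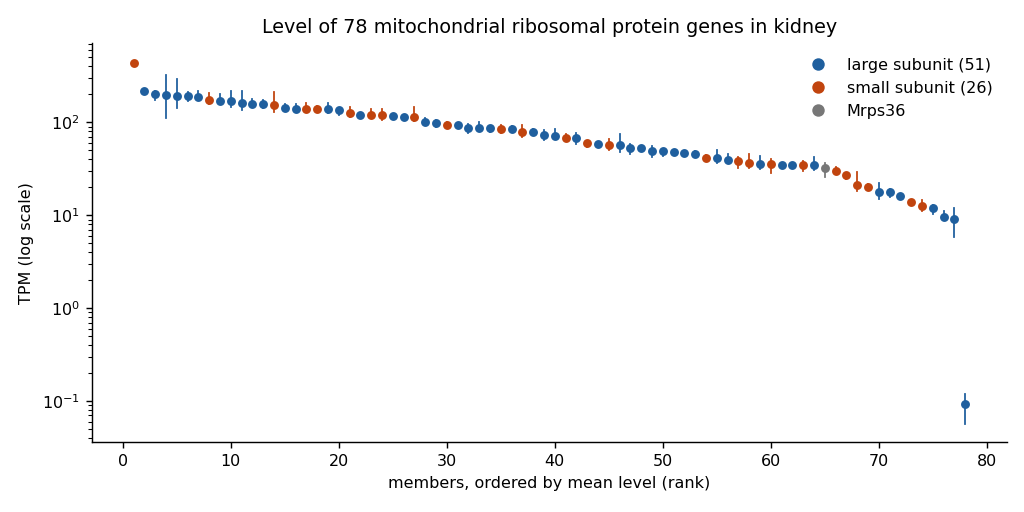
Level of each of the 78 members, in TPM on a log scale, ordered by the mean over 12 libraries (points), with a line from the lowest to the highest of the 4 group means (3 mice each). Most members lie between 10 and 200 TPM, Mrps21 is highest at 431 TPM, and Mrpl36 stands apart at 0.0931 TPM.

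Among all TPM, the members together made up the largest share in FAN1KO kidneys after cisplatin. With saline, their summed share was 0.628%, 0.661% and 0.681% for wild-type mice, and 0.637%, 0.676% and 0.694% for FAN1KO mice. With cisplatin, it was 0.617%, 0.669% and 0.707% for wild-type mice, and 0.771%, 0.796% and 0.759% for FAN1KO mice. The 3 FAN1KO cisplatin libraries lay above all 9 others on this scale. Transcripts of mitochondrial DNA took 10.2% to 16.7% of TPM in these 3 libraries and 18.3% to 22.7% in the others. With mitochondrially encoded genes left out, the members' share was 0.859%, 0.923% and 0.911% in cisplatin-treated FAN1KO kidneys and 0.782% to 0.892% in the other 9 libraries, so the groups overlapped.

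FAN1KO and wild-type kidneys were compared under cisplatin to ask how the genotypes differ after the drug. This comparison includes any difference already present with saline, and a changed response to cisplatin is read from the interaction below. Members moved in both directions: 14 of 77 were higher in FAN1KO kidneys and 2 were lower (limma on log2(TPM + 1), adjusted p under 0.05 over 14972 genes). Of all genes tested, 19.6% were called higher and 4.37% lower, so the members' share of rises was close to the background. The 3 FAN1KO libraries lay above the 3 wild-type libraries for 34 members and below them for 7, against 35.7% and 8.6% of all genes tested. The median log2 fold change was 0.20 for the members and 0.24 for all genes, and the members' quartiles were 0.02 and 0.32. The count of rises depended on single libraries, with 6 called higher without FAN1KO cisplatin replicate 1 or 2, 7 without wild-type cisplatin replicate 1 and 9 without its replicate 2. The count over all genes fell as well, from 2931 to 1169, 1536, 1442 and 2376 in the same fits.

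Directions in this comparison depended on the scaling. Median-ratio scaling divides each library by the typical ratio of its genes to their mean over libraries. It moved the median of all genes from 0.24 to −0.02 and that of the members from 0.20 to −0.10. After it, 1 member was called higher and 4 lower, against 8.68% and 7.71% of all genes. The 1 higher member was Mrpl33, and the 4 lower ones were Mrps31, Mrps22, Mrps2 and Mrpl1. Mrps2, with a bacterial relative, and Mrpl1, of the stalk beside the tRNA exit, had adjusted p of 0.0726 and 0.226 without this scaling. With mitochondrially encoded genes left out, the members' median was 0.10 and that of all genes 0.16, with 7 members called higher and 4 lower, against 12.1% and 4.83% of all genes. With Y-linked expression as a covariate, 28 members were higher and 6 lower (36.4% and 7.79% of the members), where 40.3% and 8.6% of all genes were.

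The rises were led by 3 large subunit members. Mrpl33 (chr5:31613951-31622644), a small protein with a bacterial relative, was with saline at 161, 183 and 179 TPM in the wild-type and 98.98, 109.5 and 123 TPM in the FAN1KO. With cisplatin it was at 126, 199 and 225 TPM in the wild-type and 369, 295.5 and 297 TPM in the FAN1KO. All 3 FAN1KO cisplatin values were above every other library, and all 3 FAN1KO saline values were below every other. Under cisplatin Mrpl33 was higher in FAN1KO by a log2 fold change of 0.84 (SE 0.19, limma adjusted p = 0.0122). It kept this direction after median-ratio scaling, at 0.53 (adjusted p = 0.0474). Without FAN1KO cisplatin replicate 1 the adjusted p was 0.0586.

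Mrpl52 (chr14:54426909-54429750), a mitochondria-specific protein of the central protuberance, the crown of the large subunit, was at 152, 190.4 and 205 TPM in cisplatin-treated wild-type kidneys and 326, 301 and 249 in cisplatin-treated FAN1KO kidneys. In saline kidneys it ranged from 153 to 161 TPM in wild-type and from 111 to 164 in FAN1KO. The cisplatin groups did not overlap, and the log2 fold change was 0.68 (SE 0.17, limma adjusted p = 0.0161), or 0.37 with an adjusted p of 0.0664 after median-ratio scaling. Without FAN1KO cisplatin replicate 1 its adjusted p was 0.0737.

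Mrpl54 (chr10:81264722-81266926), another mitochondria-specific member, was at 130.0, 140.2 and 151 TPM in cisplatin-treated wild-type kidneys and 214, 217 and 223 in cisplatin-treated FAN1KO kidneys. The FAN1KO values were tight, with a mean of 218 ± 4.60 TPM (SD, n = 3) against 140.5 ± 10.7 TPM. The log2 fold change was 0.63 (SE 0.094, limma adjusted p = 0.00168), and 0.33 with an adjusted p of 0.273 after median-ratio scaling. Mrpl54 stayed under an adjusted p of 0.05 with any 1 library left out, the highest being 0.00902.

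The other 11 members called higher rose less. In falling order the first 7 were Mrpl40 of the central protuberance (0.50), Mrps18c, 1 of 3 relatives of a single bacterial protein (0.49), Mrpl57 (0.48), Mrpl30 (0.47), Mrps23 (0.44), Mrpl11 at the base of the factor-binding stalk (0.39), and Mrps12 at the decoding centre (0.35, all log2 fold changes), with 4 more from 0.31 to 0.35. For Mrpl40 the values were 49.4, 53.8 and 54.7 TPM in cisplatin-treated wild-type kidneys and 81.6, 68.2 and 74.7 in cisplatin-treated FAN1KO kidneys. Each of the 11 had all FAN1KO values above all wild-type values, in the same libraries that gave the calls. The same held for 35.7% of all genes tested. After median-ratio scaling these 11 stayed above 0, from 0.004 to 0.19, and none had an adjusted p under 0.05. Of the 14 members called higher, 3 have exons that overlap another protein-coding gene, over 33.4% of their length at most. With genes of any kind counted, 5 of the 14 have an overlap, among them Mrps18c (23.2%) and Mrpl33 (3.6%). The reads of these 5 are uncertain. None of the members called lower has such an overlap. With any 1 library left out, 4 of the 11 (Mrpl40, Mrpl57, Mrpl30 and Mrps23) stayed under an adjusted p of 0.05.

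Both falls were small subunit members found only in mitochondria. Mrps31 (chr8:22410449-22429669) was at 39.5, 39.4 and 40.7 TPM in cisplatin-treated wild-type kidneys and 30.3, 28.7 and 26.3 in cisplatin-treated FAN1KO kidneys. The other libraries lay between 32.97 and 40.7 TPM, so the 3 FAN1KO cisplatin values were the lowest of the 12. Its log2 fold change was −0.48 (SE 0.096, limma adjusted p = 0.00707), and −0.77 (adjusted p = 0.00325) after median-ratio scaling.

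Mrps22 (chr9:98588730-98601679) was at 46.5, 43.7 and 36.8 TPM in cisplatin-treated wild-type kidneys and 33.6, 29.2 and 35.1 in cisplatin-treated FAN1KO kidneys. The groups did not overlap, though the lowest wild-type value was near the highest FAN1KO one. The log2 fold change was −0.36 (SE 0.11, limma adjusted p = 0.0349), and −0.66 (adjusted p = 0.039) after median-ratio scaling. Without FAN1KO cisplatin replicate 2 the adjusted p was 0.13.

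**Figure D2:**
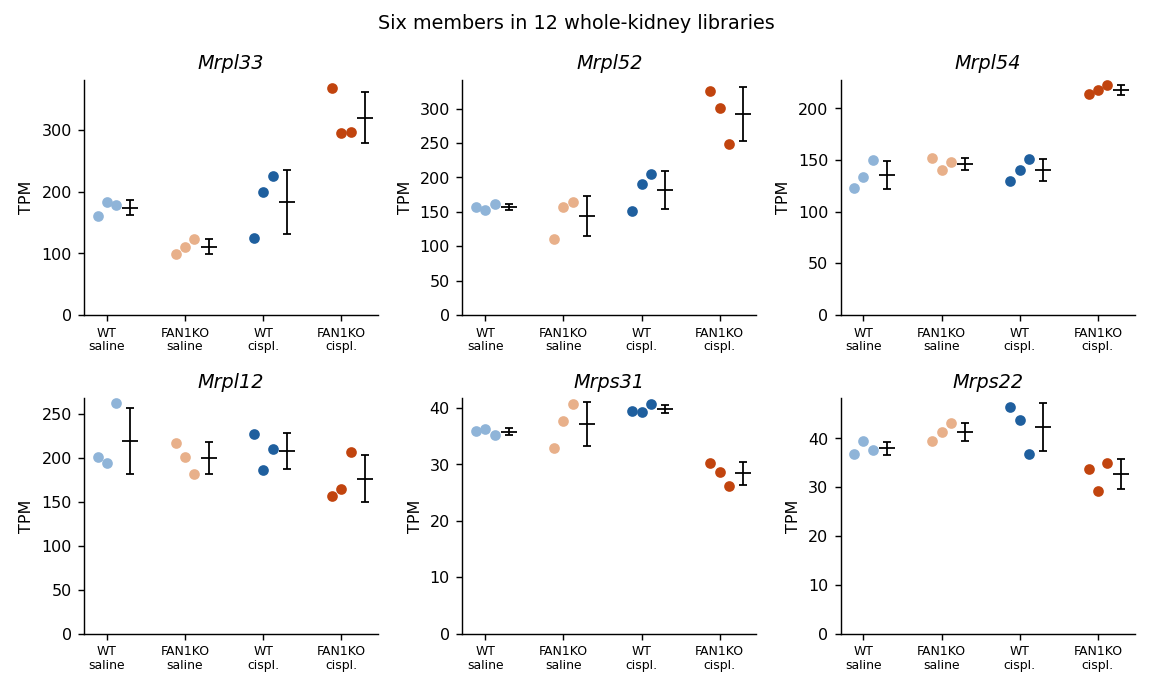
TPM of 6 members in each of the 12 libraries (points, 3 per group), with the group mean and SD (bars), on axes that start at 0. Mrpl33, Mrpl52 and Mrpl54 are highest and Mrps31 is lowest in the 3 FAN1KO cisplatin libraries, the same 3 libraries are below the wild-type cisplatin ones for Mrps22, and the groups overlap for Mrpl12.

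The calls were spread over the particle. Of the 50 large subunit members tested 9 were higher and 0 lower, with 3 lower at an unadjusted p under 0.05, and of the 26 small subunit members 5 were higher and 2 lower. Their medians were alike, at 0.21 and 0.20. Of the 47 members with bacterial relatives 8 were higher and 0 lower, and of the 29 mitochondria-specific members 6 were higher and 2 lower, with medians of 0.20 and 0.22. These counts stand beside 19.6% of all genes tested called higher and 4.37% called lower. Among all 77 members, 6 were lower at an unadjusted p under 0.05. After median-ratio scaling the 4 medians lay between −0.10 and −0.09.

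In the central protuberance, 2 of 6 members (Mrpl40 and Mrpl52) were higher, and Mrpl38, Mrpl46, Mrpl48 and Mrpl58, a peptidyl-tRNA hydrolase built into the ribosome, did not pass (log2 fold changes of 0.02, 0.22, 0.36 and 0.23). At the exit tunnel, where nascent chains leave, 0 of 5 passed by limma and 2 of the 5 were higher at an unadjusted p under 0.05. There Mrpl45, which anchors the particle to the inner membrane, had a log2 fold change of 0.24 (adjusted p = 0.0651), Mrpl24 of 0.27, Mrpl23 of 0.36, Mrpl22 of −0.04 and Mrpl47 of −0.07. In the stalks Mrpl11 alone was called. Its partners in the factor-binding stalk, Mrpl10 and Mrpl12, had log2 fold changes of −0.07 and −0.25 (adjusted p of 0.594 and 0.245). Mrpl12 was at 227, 187 and 210.2 TPM in cisplatin-treated wild-type kidneys and 157, 164 and 207 in cisplatin-treated FAN1KO kidneys, which overlapped. Beside the counts at these sites, 19.6% of all genes tested were called higher and 4.37% lower. At an unadjusted p under 0.05, 27 of all 77 members were higher.

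The 3 relatives of bacterial S18 differed in value. Mrps18c was called higher, while Mrps18b and Mrps18a, at 0.51 and 0.17, had adjusted p of 0.0682 and 0.224. Differences between the 3 were not tested. Mrps30, named for the small subunit but placed in the large one, had a log2 fold change of 0.01 (adjusted p = 0.94). Mrps36, which shares the name but is a subunit of the 2-oxoglutarate dehydrogenase complex, was at 38.0, 29.2 and 31.3 TPM in cisplatin-treated wild-type kidneys and 19.2, 32.5 and 25.3 in cisplatin-treated FAN1KO kidneys. It had a log2 fold change of −0.37 (adjusted p = 0.145). Mrps21 and Mrpl42, the most abundant members, had values of 0.10 and 0.04 (adjusted p of 0.522 and 0.779).

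**Figure D3:**
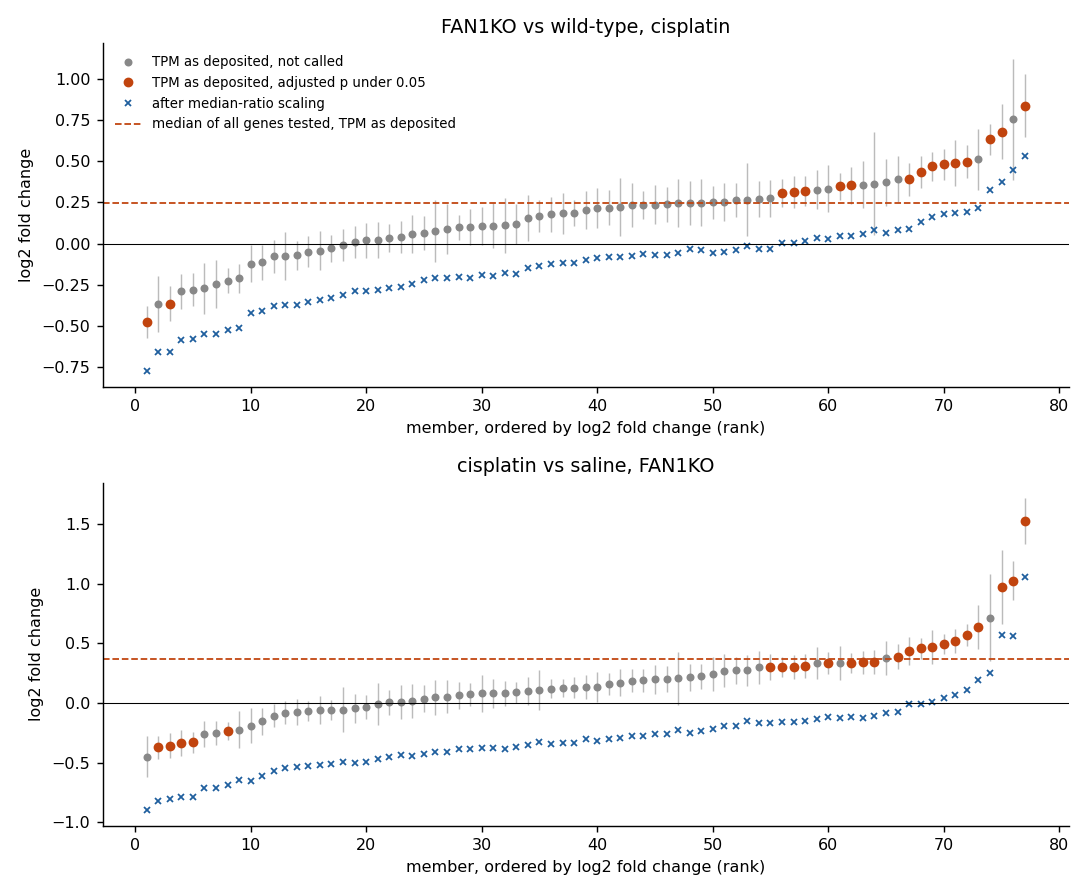
Log2 fold change of each of the 77 tested members, ordered by value, for FAN1KO against wild-type kidneys under cisplatin and for cisplatin against saline in FAN1KO kidneys (circles with SE, coloured where the adjusted p is under 0.05), with the values after median-ratio scaling (crosses). The dashed line is the median of all genes tested, 0.24 in the upper panel and 0.37 in the lower one, and after scaling most crosses lie below 0.

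Cisplatin was also compared with saline within FAN1KO kidneys, which share the FAN1KO cisplatin libraries with the comparison above. Of 77 members 19 were higher and 5 lower, against 34.9% and 4.9% of all genes tested. The rises numbered 9 without FAN1KO cisplatin replicate 1 or 2 and 10 without FAN1KO saline replicate 1, and the falls numbered 1 without FAN1KO saline replicate 3 or FAN1KO cisplatin replicate 1 and 3 without FAN1KO saline replicate 2. Over all genes, the rises went from 5229 to 3140, 3701 and 3489 in the same fits. The falls over all genes went from 733 to 587, 482 and 605. The cisplatin libraries lay above the saline ones for 34 members and below them for 9, against 47.4% and 7.43% of all genes. The median log2 fold change was 0.14 for the members and 0.37 for all genes, and 13 of the 77 were above the median of all genes. After median-ratio scaling the members' median was −0.32 and that of all genes −0.03, with 2 members called higher and 17 lower, against 14.4% and 14% of all genes. The 5 members called lower without this scaling were among those 17, and the 2 called higher were Mrpl33 and Mrpl52. With mitochondrially encoded genes left out, the members' median was 0.0044 and that of all genes 0.26, and 7 members were higher and 8 lower, against 24.4% and 5.92% of all genes.

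Mrpl33 rose from 110.5 ± 12.1 to 320.5 ± 41.7 TPM (SD, n = 3 each), a log2 fold change of 1.53 (SE 0.19, limma adjusted p = 0.000387) and of 1.06 (adjusted p = 0.0013) after median-ratio scaling. Mrpl52 rose from 144 ± 28.9 to 292 ± 39.3 TPM, by 1.03 (SE 0.17, adjusted p = 0.00128) and by 0.56 (adjusted p = 0.00869) after scaling. Both kept an adjusted p under 0.05 with any 1 library left out. They were the members with the largest rises. Mrpl23 of the exit tunnel, a lowly expressed member, rose from 3.47, 7.84 and 6.39 TPM to 10.3, 14.01 and 12.02 TPM, by 0.97 (SE 0.31, adjusted p = 0.0298), which was 0.57 (adjusted p = 0.19) after scaling. Next came Mrps18b (0.64), Mrpl54 (0.57), Mrpl40 (0.52), Mrps10 (0.49), Mrps18c (0.47), Mrpl30 (0.46) and Mrpl17 (0.44). Of these 7, Mrpl30 and Mrpl17 turned to −0.01 after median-ratio scaling and none of the 7 was then called. Among all 19 members called higher here, 7 have exons that overlap another gene of any kind, Mrps18b over 30.5%.

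The falls within FAN1KO kidneys were Mrps31, Mrps2, Mrps22, Mrpl50 and Mrpl39, with log2 fold changes of −0.37, −0.36, −0.34, −0.33 and −0.23. Mrps2, the only 1 of these 5 with a bacterial relative, went from 35.3, 36.4 and 43.5 TPM to 26.8, 31.0 and 31.3 TPM. Mrpl50 went from 88.9, 95.9 and 103 TPM to 70.7, 75.4 and 82.2 TPM. None of the 5 overlapped between the groups, in the same libraries that gave the calls, and 7.43% of all genes tested lay lower without overlap. All 5 had an adjusted p under 0.05 after median-ratio scaling, at −0.69 to −0.82. Of the 24 members called here, 11 higher and 2 lower were also called between the genotypes under cisplatin, where the same 3 libraries enter. Calls shared by both comparisons were not counted over all genes, so this overlap has no background beside it.

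Without cisplatin the genotypes were compared to see what FAN1 loss does to unchallenged kidneys. By limma 0 of 77 members were called in either direction, and 0 by voom on recovered reads, with 4 higher and 2 lower at an unadjusted p under 0.05. Over all genes, 0.341% and 0.427% were called higher and lower. The FAN1KO libraries lay above the wild-type ones for 8 members and below for 3, against 4.62% and 7.83% of all genes. Mrpl33 had the lowest value among the members, −0.66 (SE 0.19, adjusted p = 0.255), with its 3 FAN1KO values below the 3 wild-type ones. In wild-type kidneys, cisplatin against saline gave 0 calls among members by limma, 0 by voom and 0 at an unadjusted p under 0.05, where 0.0601% of all genes were called higher and 0% lower. Between these groups 1 member did not overlap upward and 0 downward, against 5.2% and 1.08% of all genes. Mrps31 was that member, and its log2 fold change was 0.15 (adjusted p = 1). The members' log2 fold changes ranged from −0.19 to 0.21 there, with a median of 0.03.

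Whether cisplatin acted differently in the genotypes was tested by the interaction, the log2 fold change of cisplatin in FAN1KO kidneys minus that in wild-type kidneys. Members called were Mrpl33 (1.495, SE 0.27, adjusted p = 0.016), Mrpl54 (0.52, SE 0.13, adjusted p = 0.0465) and Mrps31 (−0.52, SE 0.14, adjusted p = 0.0494). These were 2 higher and 1 lower of 77, against 5.22% and 1.02% of all genes tested. A pseudocount of 0.1 or a fit with no mean-variance trend gave 1 higher and 0 lower. Over all genes, the pseudocount gave 3.77% higher and 0.888% lower, and the fit with no trend 4.23% and 0.715%. With Y-linked expression as a covariate there were 12 higher and 4 lower (15.6% and 5.19% of the members), against 27.3% and 4.31% of all genes. Mrpl33 and Mrps31 kept their calls after median-ratio scaling (1.13 and −0.87), and Mrpl54 did not (0.16, adjusted p = 0.792). Mrpl33 alone stayed under an adjusted p of 0.05 with any 1 library left out, the highest being 0.0482 (without FAN1KO cisplatin replicate 1). Mrpl52 and Mrps22 had interactions of 0.82 and −0.48 (adjusted p of 0.0638 and 0.082).

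The cytosolic ribosome and the respiratory chain set the members in context. Between the genotypes under cisplatin, 19.6% of all genes tested were called higher in FAN1KO kidneys and 4.37% lower. Under cisplatin, 45 of 75 cytosolic ribosomal protein genes were higher in FAN1KO than in wild-type kidneys and 0 lower by limma (0 also at an unadjusted p under 0.05), with a median log2 fold change of 0.67 that stayed above 0 after median-ratio scaling (0.36). Of 82 nuclear genes of respiratory chain subunits, 2 were higher and 12 lower, with a median of −0.03 (−0.33 after scaling). The members' median of 0.20 (−0.10 after scaling) lay between these. Within FAN1KO kidneys, cisplatin against saline gave medians of 0.98 for the cytosolic ribosome, 0.14 for the members and −0.08 for the respiratory chain. Differences between these gene groups were not tested.

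Other genes of mitochondrial translation were read from fixed lists. Under cisplatin, 19.6% of all genes tested were called higher in FAN1KO than in wild-type kidneys and 4.37% lower. Of 5 mitoribosomal proteins with other names, Chchd1 (0.51) and Gadd45gip1 (0.82) were higher in FAN1KO kidneys under cisplatin. Of 26 assembly and rRNA modification factors, Mpv17l2 (0.83) and Rbfa (0.63), a factor for maturation of the small subunit, were higher, and the GTPase Noa1 (−0.48) was lower. Of 17 translation factors and mRNA partners 4 were lower and 0 higher by limma (5 lower and 0 higher at an unadjusted p under 0.05). They were Gfm1, the elongation factor that moves the mitoribosome along (−0.66), Gfm2, which recycles it (−0.59), Taco1, an activator of Cox1 translation (−0.57), and Lrpprc, which stabilizes mitochondrial mRNAs (−0.40). Gfm1 had a mean of 75.6 TPM in wild-type and 47.3 TPM in cisplatin-treated FAN1KO kidneys. Of 20 aminoacyl-tRNA enzymes Vars2 (0.39) was higher and Gatb, a subunit of the enzyme that makes glutaminyl-tRNA (−0.85), was lower.

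After median-ratio scaling these lists had 0 members called higher in FAN1KO than in wild-type kidneys under cisplatin. Called lower were 2 of 5, 10 of 26, 6 of 17 and 6 of 20. Of all genes tested, 8.68% were then called higher and 7.71% lower. In saline kidneys Trub2 and Ngrn, both assembly factors, were lower in FAN1KO (−0.83 and −0.73). The mitochondrial rRNAs mt-Rnr1 and mt-Rnr2 were not called between genotypes under cisplatin, and both were lower with cisplatin than with saline in FAN1KO kidneys (−0.67 and −0.61). With saline, all FAN1KO values of both rRNAs lay above all wild-type values, as they did for 4.62% of all genes tested. For mt-Rnr2 the nearest values were 4149 TPM (FAN1KO) and 4099 TPM (wild-type). Means of mt-Rnr1 were 3144 TPM (wild-type saline), 6120 TPM (FAN1KO saline), 3842 TPM (wild-type cisplatin) and 3810 TPM (FAN1KO cisplatin). In the same order mt-Rnr2 was at 3698, 5244, 4100 and 3397 TPM.

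**Figure D4:**
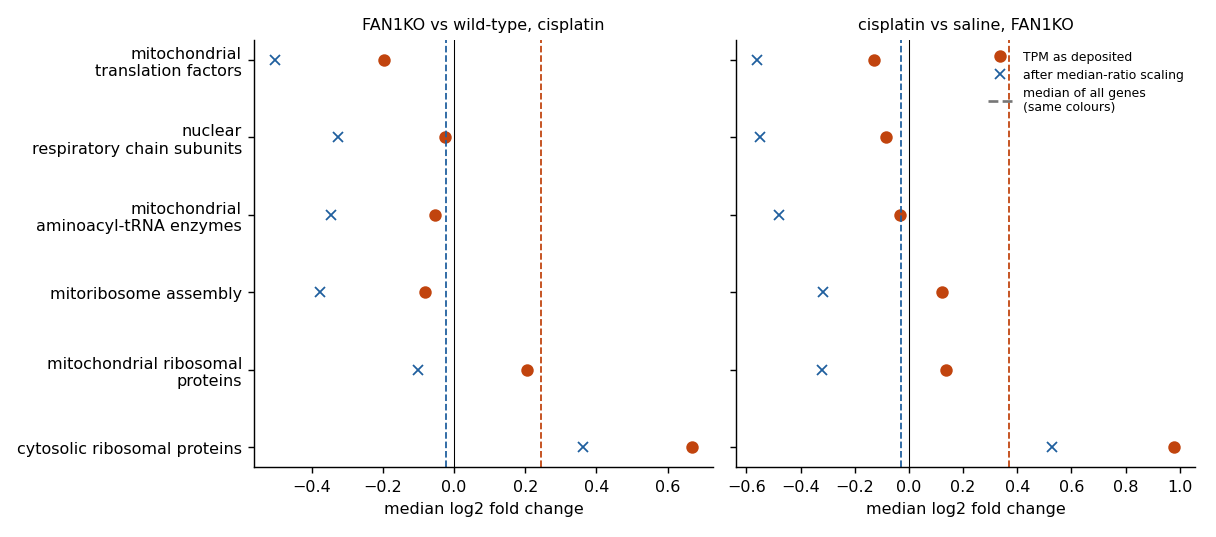
Median log2 fold change of the members and 5 related gene lists for the same pair of comparisons, in TPM as deposited (circles) and after median-ratio scaling (crosses), with the median of all genes as dashed lines. The members lie between the cytosolic ribosomal proteins and the respiratory chain subunits in both panels, and the members' median changes sign with the scaling.

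The cell type markers moved strongly with the group in which the members moved. Proximal tubule markers summed to 1701 to 3104 TPM in cisplatin-treated FAN1KO kidneys and 4210 to 6266 TPM in the other 9 libraries, with 6 of 8 lower than in cisplatin-treated wild-type kidneys. Markers of injured tubule (Havcr1, Lcn2, Krt20, Vcam1 and Sox9) summed to 785 to 1165 TPM against at most 149 TPM elsewhere, with 5 of 5 higher. Erythroid genes summed to 6.56 to 73.3 TPM against at least 535 TPM elsewhere, with 4 of 4 tested lower. Of the macrophage markers 1 of 4 was higher (94.3 to 259 TPM against at most 98.9 TPM elsewhere), of the collecting duct markers 1 of 2 was higher, and of the distal tubule markers 1 of 2 was lower. For markers of endothelium (3), fibroblast (3), podocyte (2), thick ascending limb (2) and lymphocyte (2 of 3 tested) the calls between the genotypes under cisplatin were 0. Of all genes tested, 19.6% were called higher and 4.37% lower in this comparison. The part of these cell types in the members' values was not tested.

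Length and motif content were read beside the fold changes. Across the 77 members, shorter genes had higher values between the genotypes under cisplatin (Spearman's rho of −0.32, across genes that share libraries and are not replicates, with lengths recovered from the TPM), while over all genes tested rho was −0.07. Of 3 equal bins of length over all genes, the shortest had a median of 0.30 and the longest of 0.21, and the members' own medians in these bins were 0.18 (64 members), 0.22 (7) and 0.25 (6), in the opposite order. Members with an ETS core had a median of 0.20 (17 genes) against 0.12 for those without (51), and members with an NRF1 core had 0.10 (13 genes) against 0.19 (55). With a CCAAT box the median was 0.08 (24 genes) against 0.23 without (44), and with a GC box 0.22 (33 genes) against 0.17 (35). These medians are descriptions with no test.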

How the data were processed

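The TPM used were deposited by the authors for 27179 genes, listed by NCBI Gene number, in 12 libraries of whole kidney, with build mm10 and limma named in the submitters' processing notes. The aligner, counter, annotation and use of strand are not given in the sources used here. All value columns were used. RefSeq genes of GRCm38.p6 named all but 1904 identifiers, and exon overlaps came from GENCODE M21. TPM sums are fixed, so a fall in abundant transcripts raises the others. Groups and replicate numbers came from the labels, which name separate samples, and p-values cover the spread between these 3 mice per group.

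Genes at 1 TPM or more in any 3 libraries or more (14972) were tested as log2(TPM + 1), where fold changes of low genes are understated. limma 3.58.1 (R 4.3.3) fitted 4 group means with a mean-variance trend, and p-values were adjusted by Benjamini–Hochberg over all genes with a threshold of 0.05. Members and lists were chosen with earlier results of these data known. Members named were those called in each comparison, at most 10 per direction, the 5 highest and 5 lowest by mean TPM, and members with a known place or role, while other lists name at most 5 per direction.

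Whole reads were recovered from the TPM steps within 0.02 reads for 100% of 19497 genes above 0 in at least 6 libraries, against 1 of 200 genes with moved values, and served limma's voom as an alternative chosen after seeing the data. The other alternatives were a pseudocount of 0.1, no filter, median-ratio scaling, no trend, the replicate number as a block, a Y-linked covariate, mitochondrially encoded genes left out, only the 6 libraries compared, and each library left out. Tested on simulated data for FAN1KO against wild-type under cisplatin, the fit recovered 182 of 200 genes changed 2-fold, with 13 unchanged genes called among 14515. The simulation used 1 dispersion (0.02) for all genes, with no common shift and no difference by Y-linked expression. All members changed less than 2-fold in this comparison, so these rates do not carry over to them. Python 3.11.15 with pandas 2.3.3, numpy 2.4.6, scipy 1.17.1 and matplotlib 3.10.9 was also used.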

Additional observations from a re-analysis of the deposited data

Results flagged for a closer look

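The effect of cisplatin differed between FAN1KO and wild-type kidneys for 3 members by the interaction term of the limma fit. For Mrpl33 the difference was 1.495 on the log2 scale, and the cisplatin log2 fold change was 1.53 (FAN1KO) and 0.03 (wild-type). For Mrpl54 it was 0.52, from 0.57 (FAN1KO) and 0.05 (wild-type). For Mrps31 it was −0.52, from −0.37 (FAN1KO) and 0.15 (wild-type). Mrpl54 after median-ratio scaling was at 0.16 (adjusted p = 0.792), and Mrps31 had adjusted p from 0.0441 to 0.107 with 1 library left out.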

How the results depend on the processing

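Calls among the 77 members, 2 lower and 14 higher for FAN1KO against wild-type with cisplatin and 5 lower and 19 higher with cisplatin against saline in FAN1KO kidneys, moved with the scaling and with covariates. All-gene shares were 4.37% lower and 19.6% higher in the former, and 4.9% and 34.9% in the latter. Median-ratio scaling gave 4 lower and 1 higher in the former (7.71% and 8.68% of all genes). In the latter this scaling gave 17 lower and 2 higher (14% and 14.4%). It turned the members' median log2 fold change to −0.101 in the former, −0.322 in the latter and −0.217 in the interaction, and in the latter it turned Mrpl30 to −0.006 and Mrpl17 to −0.005. With mitochondrially encoded genes left out there were 4 lower and 7 higher in the former, where 4.83% and 12.1% of all genes were called, and 8 lower and 7 higher in the latter, where 5.92% and 24.4% were. With Y-linked expression as a covariate there were 6 lower and 28 higher in the former (8.6% and 40.3% of all genes), 8 lower in the latter (8.16% of all genes), and 4 lower and 12 higher in the interaction (4.31% and 27.3%). With only the 6 libraries compared there were 1 lower and 7 higher in the former (3.03% and 11.5% of all genes). In the latter there was 1 lower (4.33% of all genes). The interaction, with 1 lower and 2 higher, gave 0 lower and 1 higher with a pseudocount of 0.1 and with no trend, and 1 higher with median-ratio scaling, with mitochondrially encoded genes left out and with voom. The all-gene share called higher was 5.22% in the main fit, 3.77% with the pseudocount and 4.23% with no trend. It was 2.22% with median-ratio scaling, 2.92% with mitochondrially encoded genes left out and 4.8% with voom. The cause of the differences between settings was not tested, and the 6-library fit also used fewer samples. With 1 library left out, calls in the former were 1 to 2 lower and 6 to 16 higher, in the latter 1 to 7 lower and 9 to 22 higher, in the interaction 0 to 1 lower and 1 to 2 higher, and between genotypes under saline 0 to 1 lower and 0 higher. Over all genes, the former gave 370 to 694 lower and 1169 to 3144 higher. The latter gave 482 to 786 and 3140 to 5607, and the interaction 51 to 216 and 217 to 981. Between genotypes under saline there were 19 to 72 and 22 to 57. A replicate block gave 1 lower in the former (3.87% of all genes) and 3 lower in the latter (4.49%). In the interaction it gave 0 lower and 1 higher (0.488% and 2.34% of all genes). Same-numbered libraries correlated at −0.24 on average in the former comparison. The Y-expressing library was replicate 1 of the wild-type and replicate 3 of the FAN1KO cisplatin group. The correlation therefore cannot tell whether the numbers pair the mice. Each group had 3 mice, which limits what could be detected for small changes.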
